A study of Caenorhabditis elegans with 6 samples.

Results

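The transthyretin-like (*ttr*) genes of *C. elegans* were examined in worms treated with CGP37157, a benzothiazepine inhibitor of the mitochondrial Na+/Ca2+ exchanger. The genes were chosen by name alone. They are the 58 identifiers of the deposited count table, of 46904 in all, whose WormBase symbol starts with *ttr-*, and 46 of them passed a level filter of 1 CPM (counts scaled to a common library size) in 3 or more of the 6 libraries and were tested among 12385 genes. RNA came from whole N2 worms, the wild-type laboratory strain, grown on OP50 bacteria. In 3 libraries the worms had been kept on plates with 50 µM CGP37157 from the young adult stage and were collected at day 5 of treatment, where the labels give their age as 5 days, and in 3 control libraries they had been kept on plates without the compound for the same time. The labels number the libraries as replicates without saying whether they come from separate cultures, so p-values measure the spread between these libraries, which may be partly technical.

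The *ttr* genes encode small, secreted proteins that are distantly related to vertebrate transthyretin, the plasma carrier of thyroid hormone and of the retinol-binding protein complex. The family is one of the largest that are particular to nematodes, and most of its members have no described function. The best known is TTR-52, a secreted protein that binds phosphatidylserine on the surface of dying cells and bridges it to the engulfment receptor CED-1. TTR-11 binds phosphatidylserine in a similar way during axon regeneration, and *ttr-33* mutants are sensitive to oxidative damage of dopaminergic neurons.

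Libraries held between 23821727 and 24551795 counts in CGP37157-treated worms and between 21122852 and 21245713 counts in control worms. Scaling factors (TMM, which corrects for a few very abundant genes) lay between 0.955 and 1.12 in treated libraries and between 0.815 and 1.13 in control libraries. Control replicate 2 had the factor of 0.815 and stood apart from the others on the first principal component of all tested genes, with a score of 59.0 against scores between -35.5 and 11.6. The main counts, the median and several single genes are therefore also given without it. On the first principal component of the *ttr* genes alone its score was 0.62, between those of control replicate 1 (-2.47) and control replicate 3 (2.17). Defining markers of intestine (6 of 6), body wall muscle (5 of 5), pharynx (4 of 4) and the oocyte and germline (6 of 6) reached the level filter. So did 5 of 7 neuronal markers, *snb-1* and *egl-3* among them, while *unc-17* of cholinergic neurons was at 0 in all 6 libraries. Outside the marker list, *cha-1* and *cho-1* of the same neurons passed the filter. The mean of *cha-1* was 1.984 CPM in treated worms and 2.44 CPM in control worms. The 0 of *unc-17* therefore does not show that cholinergic expression was absent, and its cause was not tested. Of the 5 hypodermal markers 2 reached the level filter, and the cuticle collagen genes *dpy-7*, *rol-6* and *bli-1* did not.

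The 58 genes lie on all 6 chromosomes in the WBcel235 annotation, with 22 on chromosome V, 12 on X, 10 on IV, 9 on III, 3 on I and 2 on II. They are short protein-coding genes with a median of 143 codons, and 53 of them have between 130 and 180. The longest is *ttr-14*, with 406 codons. Many lie in short arrays, since 29 genes lie within 5000 bases of another *ttr* gene, in 7 pairs and 5 groups of 3, and the other 29 stand alone. Exons of 13 tested members overlap exons of a neighbouring gene, in 12 of them on the opposite strand. The library kit preserves strand, but whether the counting used it is not given in the sources used here, so the reads of these genes and their partners may not be fully separated. The sequences of the family were not analysed here, so the extent to which reads were shared between similar members was not assessed.

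Of the members with described roles, *ttr-52* and *ttr-11* had almost no reads and *ttr-33* was measured at a moderate level. *ttr-52* (WBGene00008719, chromosome III, 13404718 to 13405783) had 1, 2 and 2 counts in CGP37157 replicates 1, 2 and 3, against 6, 0 and 1 in control replicates 1, 2 and 3. *ttr-11* (WBGene00009758, chromosome V, 20603314 to 20604428) had 2, 2 and 1 counts in treated libraries and 0, 1 and 2 in control libraries. Both were below the level filter in every library and were not tested, and no difference between the groups was detectable at this depth. *ttr-33* (WBGene00016505, chromosome V, 7837093 to 7837909) was tested. Its level was 6.16, 8.41 and 6.76 CPM in treated libraries and 10.1, 8.48 and 8.76 CPM in control libraries, so that each treated library was below each control library by a small margin. The log2 fold change (CGP37157 over control) of *ttr-33* was -0.36, with a standard error (SE) of 0.23 and an adjusted p over all 12385 genes of 0.9999 by the quasi-likelihood test of edgeR, which gave every adjusted p here unless an alternative is named. Its exons overlap those of *txt-5* on the same strand, a gene at 1.604 CPM in treated worms and 2.18 CPM in control worms.

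Expression within the family spanned a wide range. Per kb of exon, the scale on which genes can be compared, the highest member was *ttr-16*, at 1439 ± 335 CPM per kb in treated worms and 1819 ± 297 CPM per kb in control worms (SD, n = 3 each). It was followed by *ttr-51* (1182 ± 186 in treated and 1339 ± 355 in control worms), *ttr-15* (662 ± 45.9 and 909 ± 225), *ttr-46* (444 ± 51.97 and 627 ± 19.8), *ttr-6* (414 ± 97.7 and 449 ± 29.9) and *ttr-24* (305 ± 64.0 and 338 ± 41.3). In this order the ranges over libraries of *ttr-16* and *ttr-51* overlapped in both groups, those of *ttr-51* and *ttr-15* in control worms, and those of *ttr-46* and *ttr-6* and of *ttr-6* and *ttr-24* in treated worms, and the other neighbours were separate. Within single libraries the order held throughout, except that *ttr-6* was above *ttr-46* in CGP37157 replicate 1. These 6 genes made up 65.4% of the *ttr* reads in treated worms and 67.1% in control worms, after scaling. The lowest tested member, *ttr-28*, was 929-fold below *ttr-16* per kb. The plot of levels by gene shows 16 members above 100 CPM per kb, 14 between 10 and 100, and 16 under 10.

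**Figure D1:**
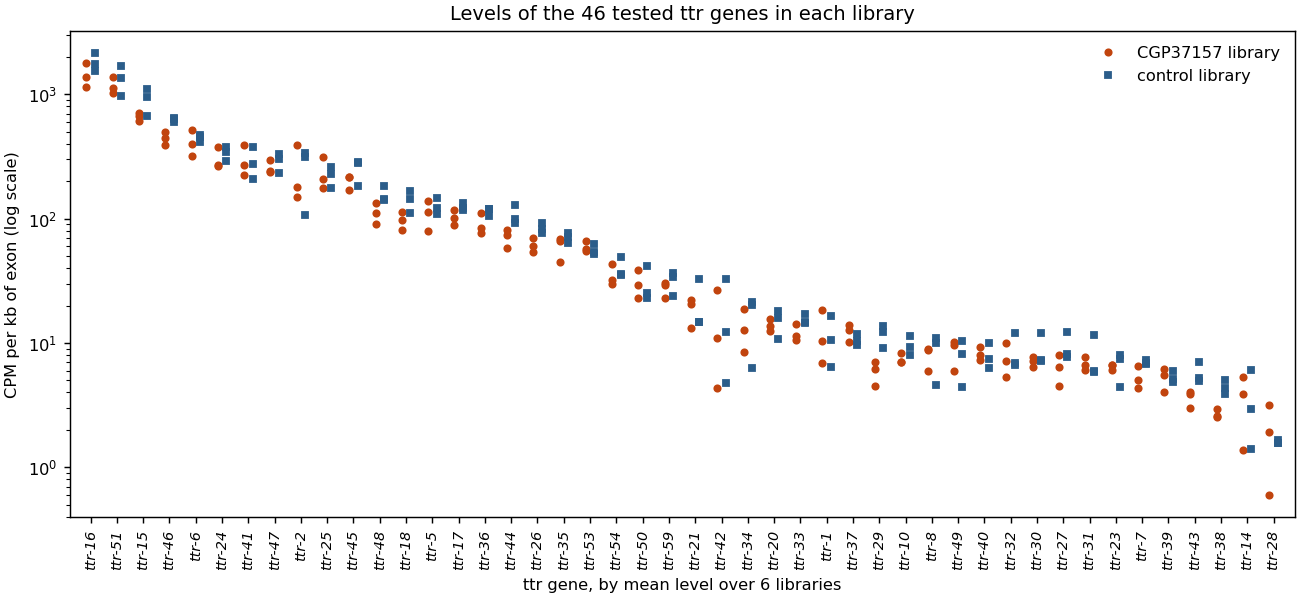
Level of each of the 46 tested *ttr* genes in each library, in CPM per kb of exon on a log scale, with circles for the 3 CGP37157 libraries and squares for the 3 control libraries. Genes are ordered by their mean over the 6 libraries, and the 6 at the left, from *ttr-16* to *ttr-24*, hold 65.4% of the *ttr* reads in treated worms and 67.1% in control worms.

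Neighbours in the same array were often expressed at very different levels. In the array of chromosome III between 9925459 and 9930413, *ttr-2* was at 240 CPM per kb in treated worms and 253 in control worms, *ttr-1*, which starts 72 bases downstream of it on the same strand, at 11.9 in treated and 11.1 in control worms, and *ttr-3* at 0.764 in treated and 0.771 in control worms. On chromosome IV *ttr-16* and *ttr-17*, 1881 bases apart, were at 1439 and 103 CPM per kb in treated worms and at 1819 and 124 CPM per kb in control worms. In other arrays the members were at similar levels. *ttr-40* and *ttr-49*, 33 bases apart on chromosome V, were at 8.20 and 8.56 CPM per kb in treated worms and at 7.94 and 7.65 in control worms. *ttr-8* and *ttr-32* on chromosome III were at 7.90 and 7.48 in treated worms and at 8.50 and 8.54 in control worms. In the array of *ttr-24*, *ttr-25* and *ttr-26* on chromosome V the levels were again unequal, between 61.4 and 305 CPM per kb in treated worms and between 84.0 and 338 in control worms. The arrays of *ttr-55*, *ttr-56* and *ttr-58* on chromosome I and of *ttr-11*, *ttr-57* and *ttr-12* on chromosome V were below the level filter throughout.

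The 12 members below the filter were *ttr-3*, *ttr-9*, *ttr-11*, *ttr-12*, *ttr-13*, *ttr-19*, *ttr-22*, *ttr-52*, *ttr-55*, *ttr-56*, *ttr-57* and *ttr-58*. Their counts added up to between 1 (*ttr-19*) and 80 (*ttr-3*) over all 6 libraries, so that their expression can neither be called absent nor compared between groups. Before scaling by TMM, *ttr-3*, just outside the filter, was at 0.294, 0.652 and 0.838 CPM in treated libraries and at 0.282, 0.378 and 1.09 CPM in control libraries, and *ttr-28*, just inside it, was at 1.68, 0.367 and 1.05 CPM in treated libraries and at 1.04, 0.709 and 0.900 CPM in control libraries.

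With CGP37157 the tested *ttr* genes were mostly at slightly lower levels, and none passed the test. Adjusted over the 12385 tested genes with edgeR's quasi-likelihood test and an adjusted p under 0.05, 0 of 46 members were higher and 0 were lower, where 1.16% of all tested genes were higher and 0.234% were lower (1.4% in either direction). DESeq2 and the likelihood ratio test of edgeR also gave 0 in each direction. At an unadjusted p under 0.05, 7 members were lower and 0 were higher in edgeR's quasi-likelihood test, which is 15.2% of the members beside 1.97% of all tested genes for the lower direction, 2.82% for the higher and 4.79% for either. DESeq2 gave 4 lower members at that threshold and the likelihood ratio test 5, beside 584 and 610 of all 12385 tested genes in either direction. The number depended on single libraries. It was 1 without CGP37157 replicate 3 and 2 without CGP37157 replicate 2, beside 462 and 533 of all tested genes in either direction. It was 3 without control replicate 3 and 4 without control replicate 2, beside 710 and 682 of all tested genes in either direction. In the main fit 244 of 593 such genes were lower, and this split was not made for the alternatives.

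Most members nevertheless lay on the same side of 0. A log2 fold change below 0 was found for 36 members (78.3%) and above 0 for 10, where 52.6% of all tested genes were below 0 and 47.4% above. The median log2 fold change was -0.20 over the 46 members and -0.01 over all tested genes, a median treated level of 0.873 of the control level. With control replicate 2 left out, 33 members were below 0 and the median was -0.21. Other control libraries moved these values more, to 31 members and -0.15 without control replicate 3 and to 39 and -0.32 without control replicate 1. Members reached a log2 fold change of -0.99 in the lower direction (*ttr-29*) and only 0.23 in the higher one (*ttr-28*), and 17 were below -0.3 (37%, beside 12.5% of all tested genes) while 0 were above 0.3 (8.49% of all tested genes). Without control replicate 2, 20 were below -0.3 (15.3% of all tested genes) and 1 was above 0.3 (11.5%). Members of a family and of an array are measured in the same 6 libraries and are not independent, so these shares describe the family in these libraries and no test was made of them. On the log2 scale the median member deviated from its group mean by 0.17, -0.09 and -0.04 in CGP37157 replicates 1, 2 and 3. In control replicates 1, 2 and 3 this was -0.19, 0.03 and 0.07, and over all tested genes it lay between -0.004 and 0.036. Between the highest and the lowest library of each group this differed by more than the size of the median log2 fold change.

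**Figure D2:**
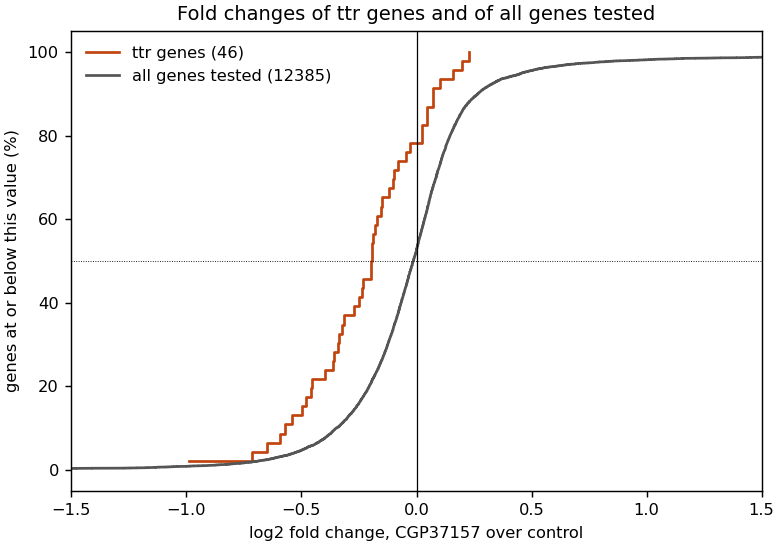
Share of genes, in percent, at or below each log2 fold change of CGP37157 over control, for the 46 tested *ttr* genes and for all 12385 genes tested, with the horizontal axis limited to 1.5 on either side of 0. The *ttr* curve lies to the left of the other, with a median of -0.20 beside -0.01, and ends at 0.23.

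Medians were below 0 at each level of expression and on each of the 5 chromosomes with tested members. The median log2 fold change was -0.23 for the 16 members above 100 CPM per kb, of which 14 were below 0. It was -0.19 both for the 14 members between 10 and 100, of which 10 were below 0, and for the 16 members under 10, of which 12 were. By chromosome the median was -0.26 on V (12 of 16 below 0), -0.24 on X (10 of 12), -0.18 on IV (7 of 9), -0.19 on III (6 of 7) and -0.25 for the 2 genes on II, of which 1 was below 0. Summed over the 58 genes, *ttr* reads were 0.407%, 0.355% and 0.358% of all counts in CGP37157 replicates 1, 2 and 3, against 0.414%, 0.409% and 0.490% in control replicates 1, 2 and 3. On this scale each treated library was below each control library, CGP37157 replicate 1 and control replicate 2 being almost level. After TMM scaling the sums were 4268, 3188 and 3660 CPM in treated libraries and 3682, 5033 and 4723 CPM in control libraries, and the groups overlapped.

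Most members were measured precisely enough to limit the size of a change. The 95% interval of the fold, not adjusted for the number of genes, lay wholly between 0.5 and 2 for 33 of the 46 members. It reached 0.5-fold or lower for 11 members and 2-fold or higher for 4. The interval lay wholly below 1 for the 7 members with an unadjusted p under 0.05. In the plot of fold changes the widest intervals belong to *ttr-42*, *ttr-14* and *ttr-28*. Their highest and lowest libraries differed by 6.22-fold, 3.91-fold and 5.36-fold in treated worms and by 6.78-fold, 4.34-fold and 1.06-fold in control worms.

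**Figure D3:**
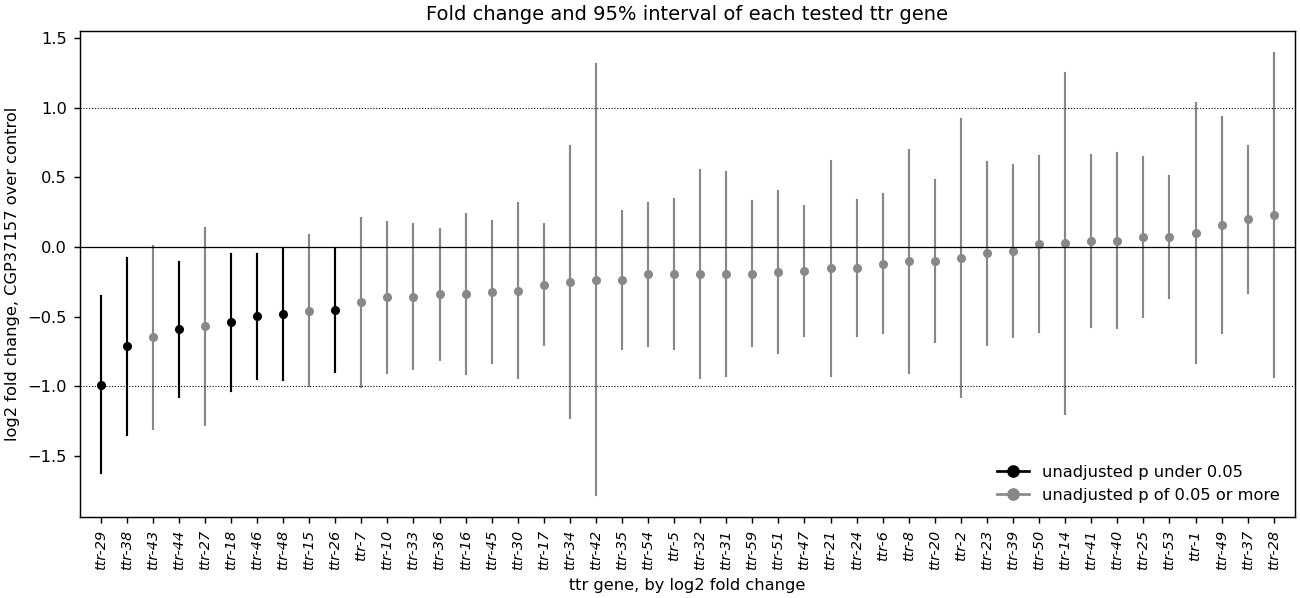
Log2 fold change of CGP37157 over control with its unadjusted 95% interval for each of the 46 tested *ttr* genes, in order of the fold change, with dotted lines at 2-fold in each direction. The 7 genes in black had an unadjusted p under 0.05, and all 7 were lower in CGP37157-treated worms.

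*ttr-29* (WBGene00011286, chromosome V, 12906128 to 12906832, minus strand) had the largest difference of the tested members. Its level was 3.79, 2.74 and 4.32 CPM in CGP37157 replicates 1, 2 and 3, against 8.41, 5.52 and 7.53 CPM in control replicates 1, 2 and 3, from raw counts of 86, 75 and 101 in treated and 201, 95 and 165 in control libraries. The groups did not overlap. The treated worms had 0.504 of the control level (95% interval 0.325 to 0.782, log2 fold change -0.99, SE 0.29, edgeR adjusted p = 0.263). Over the alternatives that tested the gene its log2 fold change lay between -1.14 and -0.82 and its adjusted p between 0.0937 and 0.907. Its array neighbours on the same strand had other values. *ttr-28*, 953 bases away, was at 0.23 on the log2 scale (SE 0.52), and *ttr-27* was at -0.57 (SE 0.32, edgeR adjusted p = 0.9999), with 4.05, 3.22 and 2.27 CPM in treated libraries and 6.19, 4.07 and 3.88 CPM in control libraries, which overlap. Whether the 3 genes differ from each other in their response was not tested.

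Groups that did not overlap were found for 9 members, all lower in treated worms, which is 19.6% of the members beside 3.69% of all tested genes in that direction, and for 0 members in the higher direction, beside 3.85% (7.54% of all tested genes in either). Without control replicate 2, 13 members were lower and 1 was higher in this way, beside 8.41% and 8.09% of all tested genes. The lower count was 17 without CGP37157 replicate 1 and 18 without control replicate 1, beside 7.46% and 7.71% of all tested genes. With 1 library fewer, groups separate more easily over all genes as well. Apart from *ttr-29* and *ttr-33* these were *ttr-7*, *ttr-26*, *ttr-38*, *ttr-43*, *ttr-44*, *ttr-46* and *ttr-48*. The most abundant of them was *ttr-46* (WBGene00011571, chromosome V, 9951233 to 9952178), which was at 330, 261 and 295 CPM in treated libraries and at 402, 426 and 424 CPM in control libraries. The gap between the groups was about as wide as the spread among the treated libraries, and the control libraries were almost level. On the log2 scale the difference was -0.50 (SE 0.20, edgeR adjusted p = 0.829), and it stayed between -0.59 and -0.42 over the alternatives.

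*ttr-44* (WBGene00008341, chromosome V, 13529545 to 13530744) was at 53.8, 49.4 and 38.8 CPM in treated libraries and at 61.8, 86.3 and 65.9 CPM in control libraries. Treated worms had 0.664 of the control level (95% interval 0.474 to 0.929, log2 fold change -0.59, SE 0.22, edgeR adjusted p = 0.631), with a log2 difference of -0.43 without control replicate 2. The gene overlaps *R11G10.3* on the opposite strand, which was below 1 CPM on average in both groups. *ttr-48* on chromosome X (3840869 to 3842448) was at 81.3, 68.2 and 55.3 CPM in treated libraries, against 88.3, 86.1 and 111 CPM in control libraries. *ttr-26* was at 29.9, 33.7 and 38.7 CPM in treated libraries and at 46.04, 42.6 and 51.5 CPM in control libraries. In both genes the groups stood close to each other, at -0.48 for *ttr-48* and -0.45 for *ttr-26* on the log2 scale (edgeR adjusted p = 0.9999 for each). *ttr-26* lies 658 bases from *ttr-25*, which was at 0.07, and *ttr-24* of the same array had -0.15.

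The low-level members of this group rested on few reads. *ttr-38* on chromosome X (9312515 to 9314497) had 36, 44 and 43 counts in treated libraries and 65, 54 and 53 in control libraries, or 1.59, 1.61 and 1.84 CPM against 2.72, 3.14 and 2.42 CPM. The treated libraries were nearly level and lay below all control libraries, a log2 difference of -0.71 (SE 0.28, edgeR adjusted p = 0.794). *ttr-43* was at 2.25, 2.16 and 1.67 CPM in treated libraries and at 2.93, 3.89 and 2.74 CPM in control libraries, a log2 difference of -0.65 (SE 0.30). *ttr-7* was at 3.70, 2.85 and 2.48 CPM in treated libraries and at 3.85, 4.13 and 3.92 CPM in control libraries, also narrowly separated. The exons of *ttr-43* overlap *C14C10.1* and those of *ttr-7* overlap *best-17* on the opposite strand, and *best-17* was at -0.31 on the log2 scale.

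*ttr-18* on chromosome II (11485510 to 11486748) had an unadjusted p under 0.05 although its groups overlapped. It was at 61.6, 44.1 and 52.8 CPM in treated libraries and at 61.1, 91.1 and 78.4 CPM in control libraries, so that CGP37157 replicate 1 was level with control replicate 1. The log2 difference was -0.54 (SE 0.22, edgeR adjusted p = 0.845), or -0.40 without control replicate 2.

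**Figure D4:**
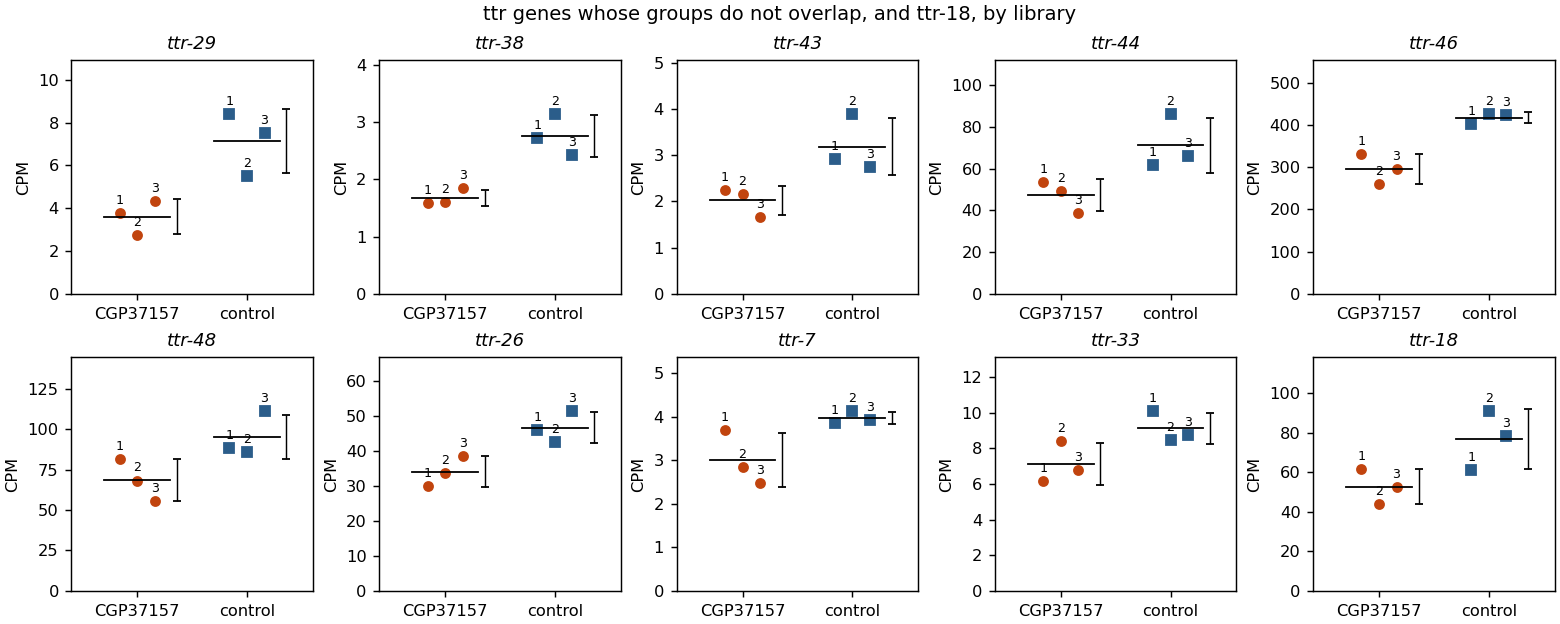
Levels in CPM of the 9 *ttr* genes whose groups do not overlap and of *ttr-18*, with circles for CGP37157 libraries, squares for control libraries, the replicate number above each point, a line at the group mean and a bar of 1 SD beside it. *ttr-29* shows treated libraries at 2.74 to 4.32 CPM and control libraries at 5.52 to 8.41 CPM, while *ttr-7* and *ttr-33* are separated only narrowly.

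Of the 6 most abundant members, all but *ttr-46* had overlapping groups. *ttr-15* was at 408, 373 and 429 CPM in treated libraries and at 406, 580 and 675 CPM in control libraries, where control replicate 1 lay within the treated range. Its log2 fold change was -0.46 (SE 0.24), and it was between -0.64 and -0.29 over the alternatives (-0.42 without control replicate 2). *ttr-16* (WBGene00012382, chromosome IV, 11063530 to 11064137) was at 924, 585 and 709 CPM in treated libraries and at 798, 1100 and 906 CPM in control libraries, with a log2 fold change of -0.34 (SE 0.26), or -0.20 without control replicate 2. It overlaps *lin-3*, the epidermal growth factor gene, on the opposite strand, a gene at 34.7 CPM in treated worms and 32.3 CPM in control worms. The log2 fold change was -0.18 for *ttr-51*, -0.12 for *ttr-6* and -0.15 for *ttr-24*. Without control replicate 2 it was 0.016 for *ttr-51*, where the sign turned, -0.11 for *ttr-6* and -0.067 for *ttr-24*. The 10 members above 0, among them *ttr-28*, *ttr-37* (0.20) and *ttr-49* (0.16), also had overlapping groups.

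A few members varied far more within groups than between them. *ttr-42* (WBGene00045268, chromosome X, 2577742 to 2578262) was at 2.07, 5.30 and 12.9 CPM in CGP37157 replicates 1, 2 and 3 and at 2.30, 5.93 and 15.6 CPM in control replicates 1, 2 and 3. The highest and the lowest library differed by 6.22-fold in treated worms and by 6.78-fold in control worms, and the libraries that shared a number were close to each other. Between the groups the log2 difference was -0.24 (SE 0.70), and it was 0.73 without control replicate 3 and 0.19 without CGP37157 replicate 1. Its exons overlap those of *H01M10.1* on the opposite strand, at 3.00 CPM in treated worms and 3.71 CPM in control worms.

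Similar differences were seen in *ttr-2*, at 73.7, 88.7 and 194 CPM in treated libraries and at 53.5, 155 and 168 CPM in control libraries, and in its array neighbour *ttr-1*, at 3.70, 5.55 and 9.79 CPM in treated and at 3.39, 5.64 and 8.76 CPM in control libraries. *ttr-34* was at 5.50, 8.30 and 12.2 CPM in treated libraries and at 4.10, 13.8 and 13.05 CPM in control libraries, with a log2 difference of -0.25, or 0.018 without control replicate 2, and *ttr-14* at 1.94, 7.56 and 5.52 CPM in treated and at 4.18, 1.98 and 8.58 CPM in control libraries. In *ttr-14*, unlike *ttr-42*, replicate 2 was the highest treated library and the lowest control library. In all 5 genes, *ttr-42* included, replicate 3 was at least 2-fold above replicate 1 in both groups. This is 10.9% of the tested members beside 1.26% of all tested genes, and 0 members showed the reverse, beside 0.646%. The condition was chosen after the values were seen. The difference in *ttr-2* covered many reads, whereas *ttr-14* was near the lower end of the family.

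Libraries that share a replicate number also share a suffix in their labels, whose meaning is not given. Of the marker lists, 2 of 3 tested coelomocyte genes, 1 of 4 eggshell and embryo genes (*chs-1*, chitin synthase of the eggshell) and 1 of 3 sperm genes (*msp-77*) met the same condition, and 0 genes of the other lists did. *chs-1* was at 81.7, 104 and 193 CPM in treated libraries and at 77.7, 66.4 and 170 CPM in control libraries. Coelomocytes are scavenger cells of the body cavity. The ion channel gene *lgc-26* was at 1.497, 3.03 and 6.03 CPM in treated libraries and at 0.962, 1.92 and 7.03 CPM in control libraries, and *cup-4*, needed for coelomocyte endocytosis, at 1.67, 3.51 and 5.65 CPM in treated and at 2.76, 2.56 and 7.94 CPM in control libraries. For all 3 markers of the list, *unc-122* included, the summed level was between 4.27 and 13.2 CPM in treated libraries and between 4.22 and 17.2 CPM in control libraries, with replicate 3 the highest in each group. In whole worms fewer cells of a type and less RNA per cell cannot be told apart, and the part of these cells, and of the eggshell and sperm markers, in the *ttr* values was not tested.

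**Figure D5:**
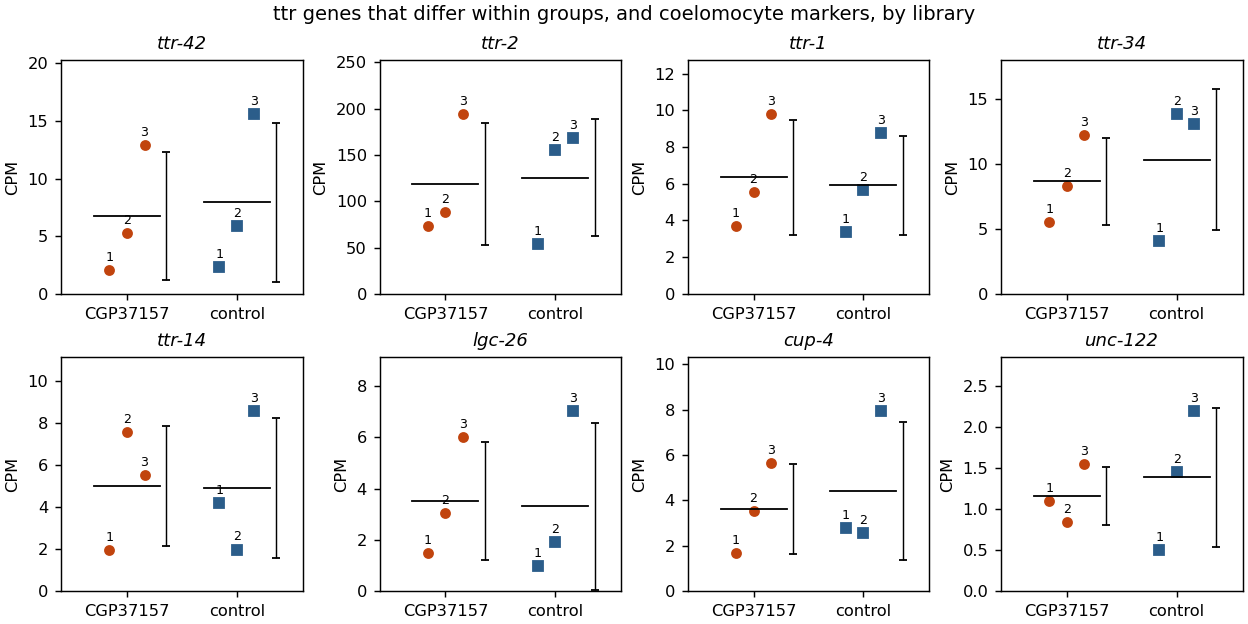
Levels in CPM of 5 *ttr* genes that differ within groups and of 3 coelomocyte markers, with circles for CGP37157 libraries, squares for control libraries, the replicate number above each point, a line at the group mean and a bar of 1 SD beside it. In *ttr-42* the libraries run from 2.07 to 12.9 CPM in treated worms and from 2.30 to 15.6 CPM in control worms, and replicate 3 is the highest in both groups there and in the 3 markers.

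The other genes of apoptotic cell clearance, in which TTR-52 acts, were followed with a list of 14 genes. None passed in either direction (edgeR's quasi-likelihood test, 0 at an unadjusted p under 0.05, and 0 adjusted calls with DESeq2). Of all tested genes 1.4% passed and 4.79% had an unadjusted p under 0.05. On the log2 scale 9 were above 0, beside 47.4% of all tested genes, and 5 below, from -0.28 up to 0.22 around a median of 0.03. The lowest value was that of *nrf-5*, which encodes a secreted lipid-binding protein that works with TTR-52 in displaying phosphatidylserine on engulfing cells. It was at 160, 131 and 125 CPM in treated libraries and at 143, 204 and 159 CPM in control libraries, and the groups overlapped. The receptor gene *ced-1* was at 118.5, 101 and 142 CPM in treated libraries and at 82.2, 106 and 126 CPM in control libraries, with a log2 fold change of 0.20 (SE 0.22). *ina-1*, the integrin alpha subunit to which TTR-11 bridges, had a log2 fold change of 0.08 (SE 0.32). Group means of 13 of these genes lay between 24.8 and 146 CPM in treated worms and between 26.3 and 168.5 CPM in control worms, while *ced-8* was at 1.301 CPM in treated and 1.28 CPM in control worms and *ttr-52* and *ttr-11* had at most 6 counts in a library.

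Marker lists of other tissues were compared on the same scale, since secreted proteins can come from several. None of their tested genes passed an adjusted or an unadjusted p of 0.05, beside 1.4% and 4.79% of all tested genes. All 5 body wall muscle genes were below 0, beside 52.6% of all tested genes, with a median of -0.39, and their summed level was between 1860 and 2563 CPM in treated libraries and between 2083 and 4261 CPM in control libraries. Of the 4 pharynx genes 3 were below 0, with a median of -0.49, and their sum was between 96.6 and 142 CPM in treated and between 118 and 228 CPM in control libraries. The 5 tested neuronal genes had a median of -0.11, with a sum over the list between 310 and 384 CPM in treated and between 327 and 450 CPM in control libraries, and the 2 tested hypodermal genes had a median of -0.19, with sums between 970.5 and 1551 CPM in treated and between 1035 and 1856 CPM in control libraries. The 6 tested moulting genes had a median of -0.28, with 4 below 0. The 3 tested coelomocyte genes had a median of -0.25, with 2 below 0. The remaining lists had medians near or above 0, with -0.01 for glia, -0.02 for sperm, 0.05 for germline and oocyte genes, 0.15 for intestine (4 of 6 above 0) and 0.19 for eggshell and embryo genes (4 of 4 above 0). Groups that did not overlap were found for 1 of 6 intestine genes (*ges-1*) and 1 of 4 eggshell and embryo genes (*pes-1*). Both were higher in treated worms, as were 3.85% of all tested genes in this way, and no other tissue list had such a gene. The summed levels of these lists overlapped between the groups, and their part in the *ttr* values was not tested.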

How the data were processed

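Per the labels, strand-specific mRNA libraries of whole worms were read as paired ends. The authors deposited raw counts per gene, without normalization. The submitters' processing notes name HISAT2, featureCounts, DESeq2 and edgeR, and the genome build and versions are not given in the sources used here. The deposited tables also hold the authors' scaled values and their own fold changes and p-values, which were not used.

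Counts were compared with edgeR 4.0.16 (glmQLFit and glmQLFTest, R 4.3.3) after TMM scaling, with condition alone in the model, keeping genes that reached 1 CPM in 3 or more libraries. P-values were adjusted over all 12385 genes (Benjamini-Hochberg). Levels are TMM-scaled CPM, and standard errors come from the test statistic. Symbols came from a table of WormBase gene names, which matched 44017 of 46904 identifiers, and positions from Ensembl's WBcel235 annotation. Genes under the level filter, such as *ttr-52*, were not tested. The fit was tested on simulated data. Replicate pairs differed by at least 47.4 per degree of freedom in a chi-square test, so no library was counted as a duplicate.

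Alternatives were other scalings, DESeq2 1.42.0, the likelihood ratio test, other filters, a block for the replicate number and omission of single libraries. Named genes were those with an unadjusted p under 0.05, the 6 highest per kb, the 6 largest fold changes, the 4 with the widest spread within a group, *ttr-52*, *ttr-11* and *ttr-33*, and up to 6 whose groups did not overlap. *ttr-7* and the members named for an array, for a position below the filter, for a value above 0 or beside *ttr-42* were chosen after their values were seen. The members and lists were chosen with earlier results of these data known. Protein and promoter comparisons that had been planned were not made, since no sequences were used here.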

Additional observations from a re-analysis of the deposited data

How the results depend on the processing

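In all 15 alternatives 0 *ttr* genes and 0 clearance genes passed an adjusted p of 0.05 in either direction, and the lowest adjusted p of a member was 0.0937 (*ttr-29*, without control replicate 2). The median log2 fold change of the tested members stayed between -0.32 and -0.15, and between 31 and 39 of the 46 were below 0, or 26 of 34 with a filter of 5 CPM. The count of members lower at an unadjusted p under 0.05 was 7, and under alternatives that were applied to it after the data were seen it was 4 with DESeq2, 3 without a low-count filter and between 1 and 5 with a library left out. Over all tested genes in either direction it was 593 of 12385 in the main fit and 584 with DESeq2. It was 958 of 21932 without a low-count filter, and between 462 and 710 with a library left out. Same-numbered libraries of the groups share a label suffix of unstated meaning. Because that meaning is not given, they were not treated as pairs. Their deviations from the group means had correlations of 0.105, -0.508 and 0.387 in replicates 1, 2 and 3 over all tested genes. Over the *ttr* genes these were 0.48, -0.36 and 0.74. So few values, from 3 libraries per group, cannot decide whether the libraries are pairs. In the fit with a replicate block the count of members lower at an unadjusted p under 0.05 was 3, beside 588 of all 12385 tested genes in either direction. With a library left out, also examined after the data were seen, between 15 and 25 members were below -0.3 (17 with all libraries) and between 9 and 18 were lower with groups that did not overlap (9 with all libraries). The shares of all tested genes were then between 10.7% and 18.6%, and between 5.09% and 11.3%. With all libraries they were 12.5% and 3.69%. Without control replicate 3, 15 members were below -0.3 (18.6% of all tested genes) and 3 above 0.3 (16.8%). In that setting 10 were lower without overlap (11.3%) and 1 was higher (8.03%). Over all tested genes, 29 were lower, and this was 17 with library sizes only, 60 with DESeq2, 66 with the likelihood ratio test, 66 without a low-count filter, 20 with the replicate block and between 12 and 34 with a library left out. Among the named members, none of them called, the sign turned only where a library was left out, for *ttr-6* (between -0.31 and 0.033), *ttr-14* (-0.40 and 0.69), *ttr-28* (-0.36 and 0.67), *ttr-34* (-0.63 and 0.018), *ttr-42* (-1.08 and 0.73) and *ttr-51* (-0.37 and 0.016). The cause was not tested. Of these members *ttr-28* was near 1 CPM, with 40, 9 and 25 counts in treated libraries and 22, 15 and 19 in control libraries. Counting error is larger at such low counts, and its part in these values was not tested.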
